A study of Mus musculus with 12 samples.

Results

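The genes described here carry the entry of glucose into glycolysis in the heart: the 3 forms of phosphofructokinase (Pfkl, Pfkm and Pfkp), the hexokinases Hk1 and Hk2, the bifunctional enzymes Pfkfb1 and Pfkfb2, and the glucose transporters Slc2a1 (GLUT1) and Slc2a4 (GLUT4). They were taken as all probe sets that the array annotation assigns to 1 of these 9 genes alone, and were selected with the log2 signals of these genotypes already known. The rule found 19 probe sets of 8 genes among 45037 in the table. Pfkl and Pfkp had 3 probe sets each, Slc2a1 had 3, Pfkfb2 had 4, Hk1 and Slc2a4 had 2 each, and Pfkm and Hk2 had 1 each. Pfkfb1 had no probe set of its own and was not analysed here, and 1 further probe set that Hk1 shares with other genes was left out. All 19 probe sets passed the filter on dim signals.

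RNA from 12 mouse hearts was hybridised to 1 expression array each. The tested hearts came from 3 ILKR211A Tg mice and 3 ILKS343D Tg mice, which overexpress a mutant of human integrin-linked kinase (ILK) in the heart, and the controls were 6 WT littermates without a transgene. The labels name no sets of WT mice. The WT mice were divided here into a first and a second set of 3 by the spelling of their titles (littermate with a small or a capital letter) and by their heart numbers. ILK is a scaffold and kinase that links integrins to the actin cytoskeleton. R211A replaces an arginine in its pleckstrin homology-like domain, and S343D replaces a serine in the kinase domain and was used as an activated form. All mice were C57BL/6 and 8 to 9 weeks old, 11 were labelled female, and WT first set replicate 1 was labelled male. Neither the labels nor the methods name the promoter of the transgenes or the number of founders. The labels also number the hearts: the ILKR211A Tg mice and the second WT set are hearts 7 to 12, and the ILKS343D Tg mice and the first WT set are hearts 1 to 6. What the numbers mark is not stated, and a plain difference between the lines cannot be told apart from one between these ranges. Pfkl, Slc2a1, Slc2a4, Hk1 and the medians over members are therefore also given against the WT set of a line's own range. So is Uap1 in ILKR211A Tg hearts, and most other genes are given against WT as a whole. The array methods describe R211A transgenic and control mice with and without infarction and name no S343D hearts, which conflicts with the labels. The study's results, in contrast, describe arrays of both transgenic lines, and its list of risen genes is given for R211A hearts at baseline. Groups here follow the labels, which name no surgery. The labels alone do not settle whether any heart was infarcted.

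Glucose enters the cardiomyocyte mainly through GLUT4, which insulin and contraction bring to the cell surface, and through GLUT1, which sits at the surface at rest and is abundant in the fetal heart, in endothelium and in many stressed cells. Hexokinase traps glucose as glucose 6-phosphate. Hk2 is the insulin-sensitive form of striated muscle and Hk1 the form shared by most tissues. Phosphofructokinase then commits fructose 6-phosphate to glycolysis as a tetramer of muscle (Pfkm), liver (Pfkl) and platelet (Pfkp) subunits, and fructose 2,6-bisphosphate, made in the heart largely by the Pfkfb2 enzyme, is its strongest activator.

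The 250 bases before the annotated start are shown for Pfkl, Slc2a1 and Hk2, the 3 genes with a promoter window whose signal in 1 transgenic line lay wholly outside that of WT on at least 1 probe set. They come from RefSeq (GRCm38.p6) and read 5′ to 3′ in the direction of transcription. Capitals mark, on either strand, ACGTG (the core of the hypoxia response element, also part of the E-box CACGTG), the heat shock element pairs TTCNNGAA and GAANNTTC, which can overlap each other, and the GC box GGGCGG.
Pfkl, chr10:78009808-78010057, minus strand: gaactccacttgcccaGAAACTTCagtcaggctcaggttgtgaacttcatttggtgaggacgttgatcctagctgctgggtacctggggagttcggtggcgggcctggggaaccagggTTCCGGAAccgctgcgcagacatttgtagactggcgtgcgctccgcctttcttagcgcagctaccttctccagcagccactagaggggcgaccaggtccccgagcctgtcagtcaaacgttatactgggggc
Slc2a1, chr4:119108495-119108744, plus strand: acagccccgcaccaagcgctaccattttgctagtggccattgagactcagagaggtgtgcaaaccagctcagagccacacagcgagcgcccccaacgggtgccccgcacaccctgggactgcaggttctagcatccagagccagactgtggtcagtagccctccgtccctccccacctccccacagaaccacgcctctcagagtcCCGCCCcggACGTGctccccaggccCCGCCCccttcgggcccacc
Hk2, chr6:82774455-82774704, minus strand: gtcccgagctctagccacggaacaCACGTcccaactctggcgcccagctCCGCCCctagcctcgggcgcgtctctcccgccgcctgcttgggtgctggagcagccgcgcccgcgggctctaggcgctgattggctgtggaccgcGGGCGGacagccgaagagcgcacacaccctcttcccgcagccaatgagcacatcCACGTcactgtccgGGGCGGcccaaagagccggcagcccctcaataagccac
The Pfkl window held 1 TTCNNGAA and 1 GAANNTTC, as separate runs, and neither ACGTG nor GGGCGG. The Slc2a1 window held 1 ACGTG and 2 GC boxes, and the Hk2 window 2 ACGTG and 3 GC boxes. Of 32851 windows of this length, 16.6% held ACGTG, 7.17% held TTCNNGAA, 6.69% held GAANNTTC and 32.7% held GGGCGG. Over the 17 windows of the 8 members that have one, ACGTG stood in 6, TTCNNGAA in 3, GAANNTTC in 1 and GGGCGG in 5. Slc2a4 had no window in the table used. A match describes the sequence only, and no binding was measured.

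The transgene was read first as a check of the labels. The Ilk probe set averaged 8799 ± 682 in ILKR211A Tg hearts, 3515 ± 434 in ILKS343D Tg hearts and 601 ± 39.0 in WT hearts (mean ± SD, n = 3, 3 and 6). The heart markers Myh6, Tnnt2, Tnni3, Actc1, Myl2, Ryr2, Pln and Mb were all above the filter, and their summed signal was 81315 to 90180 in ILKR211A Tg, 75057 to 82982 in ILKS343D Tg and 78281 to 93316 in WT hearts. The atrial markers Sln, Myl7 and Myl4 varied widely within every group, with a summed signal of 827 to 12066 in ILKR211A Tg, 265 to 13237 in ILKS343D Tg and 511 to 9207 in WT hearts. The description of 1 heart names the left ventricle, and the others name the heart. The median signal of an array was 41.5 to 46.5 in ILKR211A Tg, 45.1 to 49.1 in ILKS343D Tg and 43.1 to 47.1 in WT hearts. Signals are MAS5 values on a linear scale, made comparable between arrays by a common trimmed mean, and signals of different probe sets are not compared with each other.

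**Figure D1:**
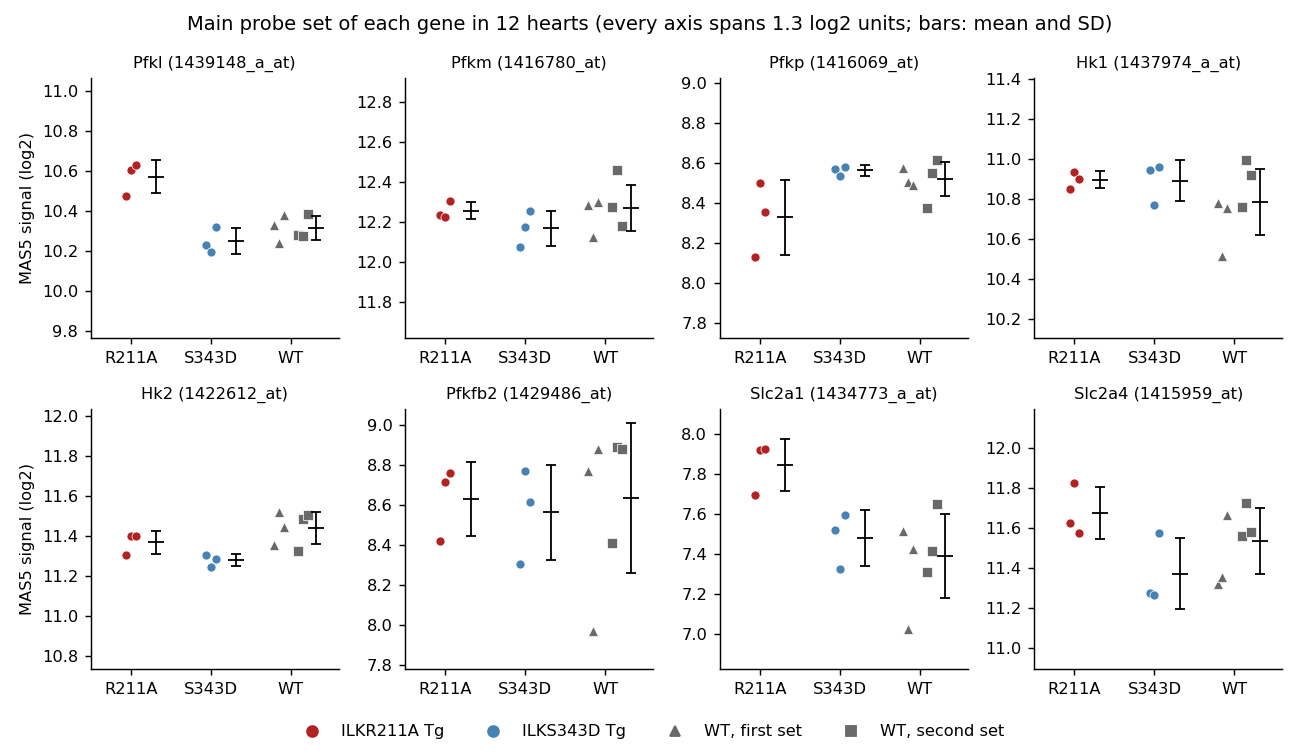
MAS5 signal (log2) of the main probe set, the one with the highest mean, of each of the 8 genes in 3 ILKR211A Tg, 3 ILKS343D Tg and 6 WT hearts; points are single hearts, triangles and squares are the first and second WT set, and bars are the mean and SD. For Pfkl and Slc2a1 the 3 ILKR211A Tg hearts lie above all other hearts, and for Hk2 the 3 ILKS343D Tg hearts lie below all WT hearts.

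Pfkl and Slc2a1 were higher in ILKR211A Tg hearts than in all other hearts, by fold 1.19 and 1.22 against WT for the liver-type phosphofructokinase subunit on its 2 bright probe sets and by fold 1.32 to 1.44 for GLUT1 over its 3 probe sets. The highest of these folds depends on the controls, since on that probe set (1426600_at) the log2 difference was 0.81 from the first WT set and 0.23 from the second. In ILKR211A Tg hearts Slc2a4 lay above all WT hearts on 1415958_at and overlapped WT on its main probe set (1415959_at). Pfkm, Pfkp, Hk1, Hk2 and Pfkfb2 overlapped WT in ILKR211A Tg hearts. In ILKS343D Tg hearts only Hk2 lay wholly outside the WT range, on the lower side. Since the genes were selected on these contrasts, these values are descriptions.

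Among the phosphofructokinase subunits, the main Pfkl probe set (1439148_a_at) read 1423, 1556 and 1584 in ILKR211A Tg hearts, 1201, 1170 and 1277 in ILKS343D Tg hearts, and 1209, 1264 and 1336 as the lowest, median and highest WT value. Every ILKR211A Tg heart was above every other heart, and ILKS343D Tg overlapped WT. The means were 1521 ± 86.0 in ILKR211A Tg, 1216 ± 55.1 in ILKS343D Tg and 1273 ± 52.7 in WT hearts (SD, n = 3, 3 and 6). The log2 difference from WT was 0.26 (SE 0.0585) in ILKR211A Tg and -0.07 (SE 0.0585) in ILKS343D Tg hearts.

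A second Pfkl probe set (1450269_a_at) gave 983, 962 and 1062 in ILKR211A Tg hearts, 790, 795 and 812 in ILKS343D Tg hearts, and 800, 819 and 841 as the lowest, median and highest WT value. This probe set had the tightest spread of the bright ones within WT, 820 ± 14.2, and the gap below the lowest ILKR211A Tg heart was wider than the whole WT range. Its log2 difference from WT was 0.29 (SE 0.0532) in ILKR211A Tg and -0.04 (SE 0.0532) in ILKS343D Tg hearts. The third Pfkl probe set (1453541_at) lay near the filter limit of 43.5 and did not separate the groups, with 56.9, 38.6 and 53.6 in ILKR211A Tg hearts, 41.0, 59.4 and 49.3 in ILKS343D Tg hearts, and 25.6, 52.8 and 55.5 as the lowest, median and highest WT value.

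Pfkm, the subunit that dominates in skeletal and heart muscle, overlapped in all 3 genotypes. In signal, it read 4813, 4789 and 5058 in ILKR211A Tg hearts, 4310, 4617 and 4873 in ILKS343D Tg hearts, and 4458, 4967 and 5629 as the lowest, median and highest WT value. Relative to WT, its log2 difference was -0.02 (SE 0.0681) in ILKR211A Tg and -0.10 (SE 0.0681) in ILKS343D Tg hearts.

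Pfkp, the platelet-type subunit, pointed the other way from Pfkl in ILKR211A Tg hearts on its main probe set (1416069_at). It read 280, 362 and 327 in ILKR211A Tg hearts, 381, 371 and 383 in ILKS343D Tg hearts, and 332, 369 and 393 as the lowest, median and highest WT value. ILKR211A Tg hearts were all below ILKS343D Tg hearts, whereas 1 of them lay within the WT range. Against WT the log2 difference was -0.19 (SE 0.0835) in ILKR211A Tg and 0.04 (SE 0.0835) in ILKS343D Tg hearts. The other Pfkp probe sets overlapped in all groups, with log2 differences from WT of -0.03 (SE 0.188) and -0.21 (SE 0.242) in ILKR211A Tg and -0.09 (SE 0.188) and -0.26 (SE 0.242) in ILKS343D Tg hearts.

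Of the hexokinases, Hk2 read 2530, 2706 and 2708 in ILKR211A Tg hearts, 2536, 2431 and 2494 in ILKS343D Tg hearts, and 2567, 2830 and 2943 as the lowest, median and highest WT value. All 3 ILKS343D Tg hearts were below all 6 WT hearts, by a narrow margin, while ILKR211A Tg hearts overlapped both. The log2 difference from WT was -0.07 (SE 0.0567) in ILKR211A Tg and -0.16 (SE 0.0567) in ILKS343D Tg hearts, and in ILKS343D Tg hearts it was -0.16 against each WT set taken alone.

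Hk1 overlapped in every comparison with WT as a whole. Its main probe set (1437974_a_at) read 1849, 1960 and 1914 in ILKR211A Tg hearts, 1975, 1750 and 1992 in ILKS343D Tg hearts, and 1463, 1749 and 2039 as the lowest, median and highest WT value. Both lines differed from WT by the same amount, a log2 difference of 0.11 (SE 0.0864). Against the first WT set it was 0.21 in both lines, and against the second set 0.00 in both. The other Hk1 probe set (1420901_a_at) gave 0.23 (SE 0.139) in ILKR211A Tg and 0.01 (SE 0.139) in ILKS343D Tg hearts. From the first and second WT set it differed by 0.37 and 0.10 in ILKR211A Tg and by 0.15 and -0.12 in ILKS343D Tg hearts.

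Pfkfb2 had the widest spread within WT of the main probe sets. Its main probe set (1429486_at) read 342, 420 and 434 in ILKR211A Tg hearts, 316, 437 and 392 in ILKS343D Tg hearts, and 250, 454 and 474 as the lowest, median and highest WT value. The genotypes overlapped throughout, with a log2 difference from WT of 0.00 (SE 0.183) in ILKR211A Tg and -0.07 (SE 0.183) in ILKS343D Tg hearts. The 3 dimmer Pfkfb2 probe sets differed from WT by 0.02 to 0.10 in ILKR211A Tg and by -0.25 to -0.05 in ILKS343D Tg hearts on the log2 scale, with standard errors of 0.173 to 0.205.

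**Figure D2:**
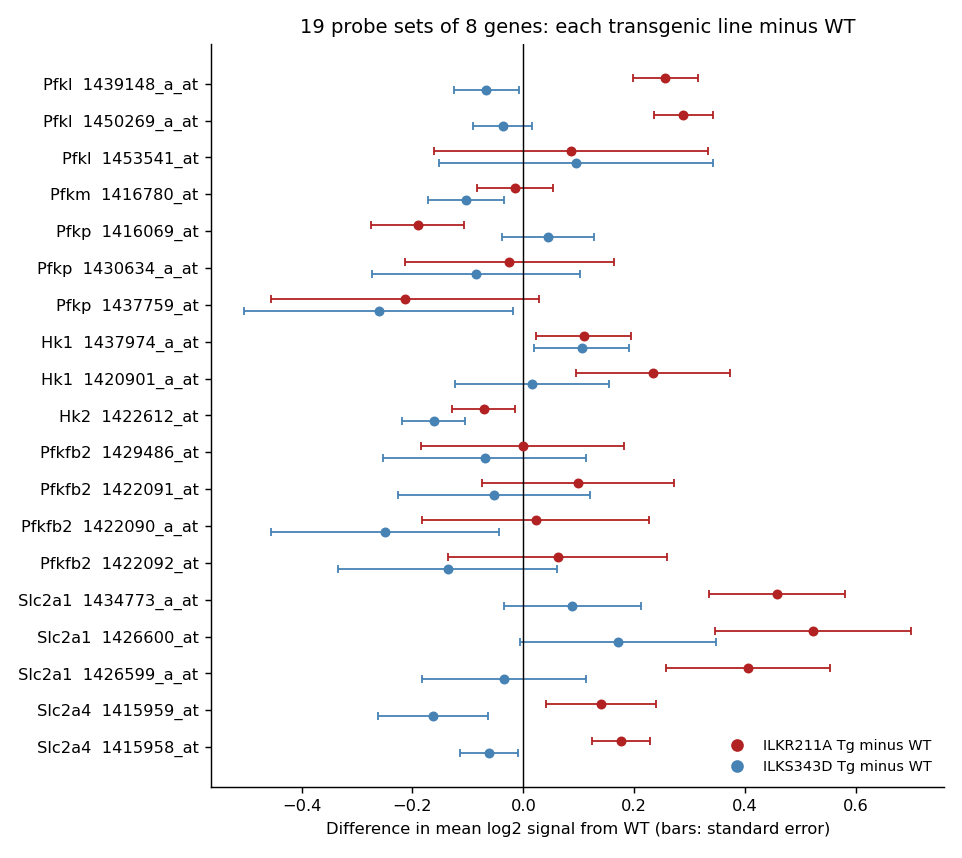
Difference in mean log2 signal from WT for each of the 19 probe sets of 8 genes, ILKR211A Tg (red) and ILKS343D Tg (blue), with bars of 1 standard error from the fit over all 12 arrays. In ILKR211A Tg the 3 Slc2a1 probe sets (0.41 to 0.52) and the 2 bright Pfkl probe sets (0.26 and 0.29) stand to the right of the rest, and in ILKS343D Tg all 19 values lie between -0.26 and 0.17.

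Slc2a1, the transporter that works without insulin, was higher in ILKR211A Tg hearts on each of its 3 probe sets. The main one (1434773_a_at) read 207, 242 and 242 in ILKR211A Tg hearts, 183, 160 and 193 in ILKS343D Tg hearts, and 130, 171 and 201 as the lowest, median and highest WT value. The log2 difference from WT was 0.46 (SE 0.123) in ILKR211A Tg and 0.09 (SE 0.123) in ILKS343D Tg hearts. ILKR211A Tg hearts were above all WT and all ILKS343D Tg hearts.

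On 1426600_at, Slc2a1 read 173, 172 and 171 in ILKR211A Tg hearts and 151, 123 and 133 in ILKS343D Tg hearts. The same probe set read 114, 81.1 and 101 in the first WT set and 144, 133 and 165 in the second. The controls therefore fell into 2 ranges that did not overlap, and the size of the difference follows the controls used: the log2 difference of ILKR211A Tg hearts was 0.81 (SE 0.139) from the first set and 0.23 (SE 0.139) from the second, and 0.52 (SE 0.177) from all WT hearts. In ILKS343D Tg hearts the log2 difference was 0.46 from the first set and -0.12 from the second. On 1426599_a_at, Slc2a1 read 143, 174 and 162 in ILKR211A Tg hearts, 116, 113 and 123 in ILKS343D Tg hearts, and 85.2, 132 and 140 as the lowest, median and highest WT value, with a log2 difference from WT of 0.41 (SE 0.148) in ILKR211A Tg and -0.03 (SE 0.148) in ILKS343D Tg hearts.

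Slc2a4, the insulin-responsive transporter of muscle and fat, was separated from WT on 1 of its 2 probe sets. That probe set (1415958_at) read 3087, 3278 and 3022 in ILKR211A Tg hearts, 2796, 2558 and 2605 in ILKS343D Tg hearts, and 2642, 2787 and 2852 as the lowest, median and highest WT value. The log2 difference from WT was 0.18 (SE 0.0516) in ILKR211A Tg and -0.06 (SE 0.0516) in ILKS343D Tg hearts. The main probe set (1415959_at) overlapped, with 3159, 3630 and 3057 in ILKR211A Tg hearts, 2481, 2462 and 3058 in ILKS343D Tg hearts, and 2562, 3046 and 3388 as the lowest, median and highest WT value. Its log2 difference from WT was 0.14 (SE 0.0987) in ILKR211A Tg and -0.16 (SE 0.0987) in ILKS343D Tg hearts.

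**Figure D3:**
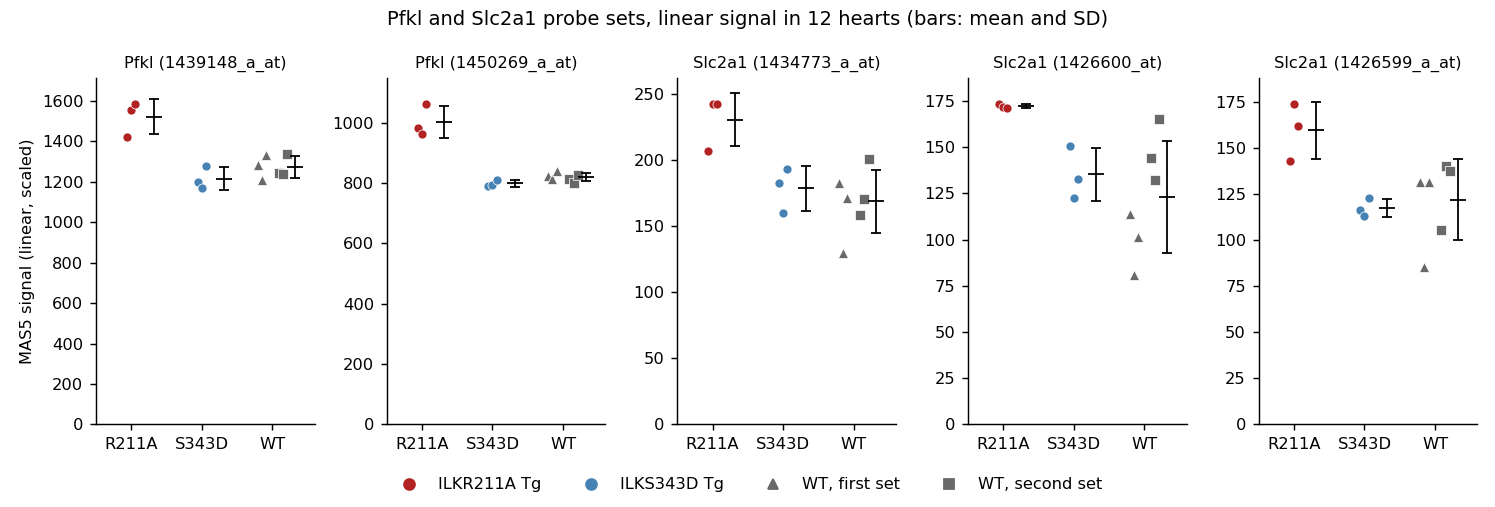
Linear MAS5 signal of the 2 bright Pfkl and the 3 Slc2a1 probe sets in 12 hearts, from 0, with each heart as a point and the mean and SD as bars. The ILKR211A Tg hearts lie above all other hearts on each probe set, and on 1426600_at the first WT set (81.1 to 114) lies below the second (133 to 165).

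Setting the 2 transgenic lines against each other, Pfkl was higher in ILKR211A Tg than in ILKS343D Tg hearts by 0.32 (SE 0.0676) and 0.33 (SE 0.0615) on its bright probe sets, Slc2a1 by 0.37 (SE 0.142), 0.35 (SE 0.205) and 0.44 (SE 0.171), and Slc2a4 by 0.30 (SE 0.114) and 0.24 (SE 0.0596), on the log2 scale. Pfkp (1416069_at) differed by -0.23 (SE 0.0964). These differences lie across the ranges of heart numbers. With the range of heart numbers (1 to 6 or 7 to 12) as a block, which sets each line against its own WT set, they were 0.33 (SE 0.098) and 0.35 (SE 0.0881) for Pfkl, 0.13 (SE 0.153) and 0.17 (SE 0.0837) for Slc2a4 and -0.23 (SE 0.14) for Pfkp. For Slc2a1 they became 0.23 (SE 0.2), -0.23 (SE 0.197) and 0.29 (SE 0.243), so that 1426600_at turned to the lower side in ILKR211A Tg hearts. Both lines were compared with the same WT hearts, so that their differences from WT as a whole are not independent of each other.

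The counts below are given beside the share of all 22519 tested probe sets that met the same criterion. For ILKR211A Tg against WT, 1 of 19 probe sets (Pfkl 1450269_a_at) passed an adjusted p of 0.05 in limma, as did 0.204% of all probe sets tested (28 rose and 18 fell), and 7 of 19 had an unadjusted p under 0.05, as did 7.51% of all. All 3 ILKR211A Tg hearts were above all WT hearts on 6 of 19 probe sets (Pfkl 2, Slc2a1 3, Slc2a4 1), against 2.12% of all, and below all WT hearts on 0, against 1.95%. For ILKS343D Tg against WT none of the 19 passed the adjusted threshold, against 0.00444% of all (1 probe set), and 1 (Hk2) had an unadjusted p under 0.05, against 3.98%. ILKS343D Tg hearts were all above WT on 0 of 19, against 1.11%, and all below WT on 1 (Hk2), against 0.919%. For ILKR211A Tg against ILKS343D Tg, none passed the adjusted threshold, against 0.16% of all, and 7 had an unadjusted p under 0.05, against 8.45%. The ILKR211A Tg hearts were all above ILKS343D Tg on 6 of 19, against 7.55%, and all below on 1 (Pfkp), against 7.4%. Nothing is read from these counts about the genes, which were selected on these contrasts, and probe sets of 1 gene share their transcript. The 1 call was lost when any single mouse of the 12 was left out, ILKS343D Tg mice included. It was also lost with the range of heart numbers as a block, where none of the 19 probe sets passed the adjusted threshold in any comparison, against 0.147% of all for ILKR211A Tg against WT, 0.00444% for ILKS343D Tg against WT and 0.0133% between the lines.

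Over the 8 main probe sets, the median log2 difference was 0.05 for ILKR211A Tg against WT (4 above 0, range -0.19 to 0.46), -0.07 for ILKS343D Tg against WT (3 above 0, range -0.16 to 0.11), and 0.09 for ILKR211A Tg against ILKS343D Tg (7 above 0, range -0.23 to 0.37). Over all 19 probe sets it was 0.10 (13 above 0), -0.06 (6 above 0) and 0.20 (17 above 0) in the same order of comparisons. The median over all probe sets tested was 0.00 in each of them. Within the ranges of heart numbers, the median over the 8 main probe sets was -0.02 for ILKR211A Tg against the second WT set (4 above 0) and -0.02 for ILKS343D Tg against the first (4 above 0), and over all 19 it was -0.05 (9 above 0) and 0.03 (11 above 0). Against the first WT set, the median of the main probe sets in ILKR211A Tg hearts was 0.15, so that its sign follows the controls.

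The selection rule did not use the division of the WT hearts, and the first and second set were compared by the same test with 4 groups. None of the 19 probe sets passed the adjusted threshold, as against 0.00888% of all (2 probe sets), and 3 had an unadjusted p under 0.05, against 7.99% of all. These were Slc2a1 1426600_at (log2 first minus second -0.58, SE 0.139, adjusted p = 0.299), Hk1 1437974_a_at (-0.21, SE 0.0862, adjusted p = 0.589) and Pfkfb2 1422091_at (-0.42, SE 0.172, adjusted p = 0.586). The bright Pfkl probe sets read alike in both sets (1275 ± 61.7 in the first and 1272 ± 56.0 in the second on 1439148_a_at), with an interval of the log2 difference of -0.15 to 0.15 (95%). The ILKR211A Tg difference in Pfkl was accordingly 0.25 from the first and 0.26 from the second set on 1439148_a_at, and 0.28 and 0.30 on 1450269_a_at. On the main Slc2a1 probe set it was 0.53 from the first and 0.39 from the second set. Within hearts 7 to 12, where the second set is the control, Slc2a1 differed by 0.23 on 1426600_at and 0.33 on 1426599_a_at, and Slc2a4 by 0.05 on 1415959_at and 0.14 on 1415958_at. Within hearts 1 to 6, where the first set is the control, ILKS343D Tg hearts differed by 0.16, 0.46 and 0.04 for Slc2a1, by -0.07 and -0.05 for the bright Pfkl probe sets and by -0.08 and -0.03 for Slc2a4. The division into sets and the ranges of heart numbers cannot be told apart.

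Among single hearts, WT first set replicate 2 was the lowest of the 12 on 7 of 19 probe sets, which included all 3 of Slc2a1 and both of Hk1. Without this heart the log2 difference of ILKR211A Tg from WT was 0.38 for Slc2a1, against 0.46 with it, and 0.05 for Hk1, against 0.11 with it. For Pfkl it was 0.24, against 0.26 with it. Without the mouse labelled male, WT first set replicate 1, the 3 ILKR211A Tg hearts were still above the remaining WT hearts on all 5 bright Pfkl and Slc2a1 probe sets, since they were above each WT heart.

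The balance between forms was read within each heart as a log2 ratio of main probe sets, which removes any error in the scaling of an array, and is given relative to the mean of the WT hearts. Pfkl over Pfkm was 0.27 above WT in ILKR211A Tg hearts (range 0.20 to 0.33, n = 3) and 0.04 above in ILKS343D Tg hearts (range -0.03 to 0.11, n = 3), where WT hearts ranged from -0.23 to 0.16 (n = 6). ILKR211A Tg hearts were thus all above WT hearts. Pfkp over Pfkm was -0.18 in ILKR211A Tg hearts (-0.35 to 0.03) and 0.15 in ILKS343D Tg hearts (0.08 to 0.25), with WT from -0.16 to 0.19, so that the lines were apart from each other and both overlapped WT.

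Hk1 over Hk2 was 0.18 in ILKR211A Tg hearts (0.15 to 0.20) and 0.27 in ILKS343D Tg hearts (0.18 to 0.33), where WT ranged from -0.36 to 0.16. The ILKS343D Tg hearts were above all WT hearts, and the lowest ILKR211A Tg heart overlapped the highest WT heart. Slc2a1 over Slc2a4 was 0.32 in ILKR211A Tg hearts (0.22 to 0.49) and 0.25 in ILKS343D Tg hearts (0.16 to 0.39), and both overlapped WT (-0.19 to 0.34). These ratios use the signals that chose the genes and were not tested.

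**Figure D4:**
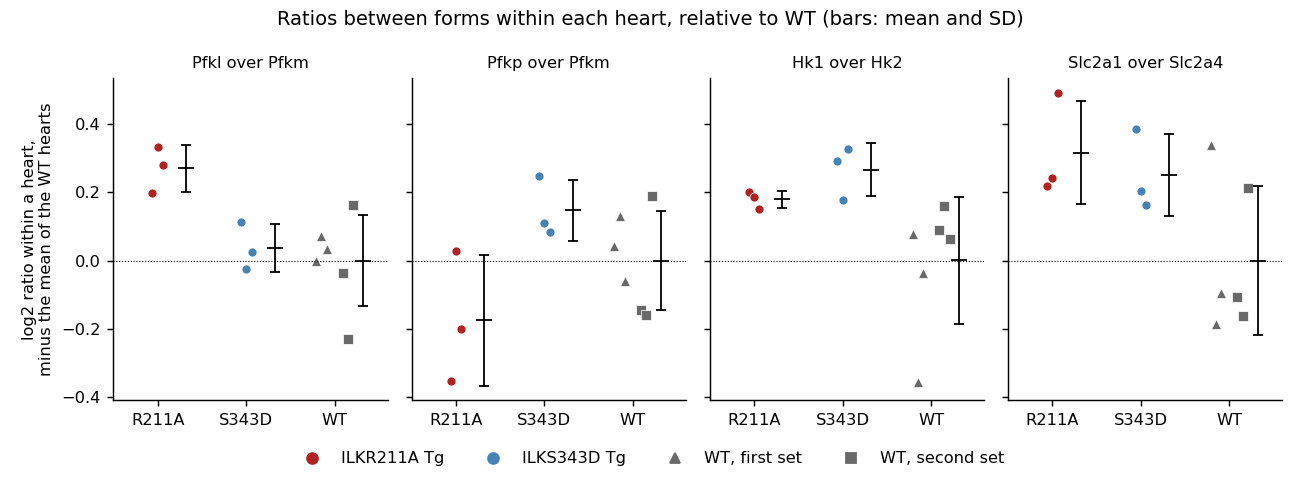
log2 ratio of main probe sets within each heart, minus the mean of the WT hearts, for Pfkl over Pfkm, Pfkp over Pfkm, Hk1 over Hk2 and Slc2a1 over Slc2a4; points are hearts and bars the mean and SD. Pfkl over Pfkm in ILKR211A Tg (0.20 to 0.33) and Hk1 over Hk2 in ILKS343D Tg (0.18 to 0.33) lie above all WT hearts.

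The hearts hold several cell types, and in such bulk RNA fewer cells of a type and less RNA per cell cannot be told apart. GLUT1 is carried by endothelium as well as by muscle, and markers of other cell types were read beside it. The 5 endothelial markers (Pecam1, Cdh5, Tek, Kdr and Tie1), all above the filter, summed to 2721 to 3273 in ILKR211A Tg, 2524 to 3561 in ILKS343D Tg and 2557 to 3200 in WT hearts, and the ranges overlapped. Red blood cell markers, 2 of 3 above the filter, summed to 410 to 726 in ILKR211A Tg, 328 to 490 in ILKS343D Tg and 423 to 783 in WT hearts. Smooth muscle markers, 3 of 4 above the filter, summed to 2757 to 3105 in ILKR211A Tg, 2237 to 3085 in ILKS343D Tg and 1512 to 2676 in WT hearts. The ILKR211A Tg sums were above those of WT hearts and overlapped those of ILKS343D Tg hearts. Acta2 made up most of the sum, with a mean of 2563 in ILKR211A Tg hearts against 100 for Myh11 and 210 for Tagln. The log2 differences of Myh11, Acta2 and Tagln from WT were 0.19, 0.29 and 0.37 in ILKR211A Tg hearts. None of them passed the test (adjusted p = 0.895, 0.817 and 0.687 in limma, ILKR211A Tg against WT). Adipocyte markers, which bear on Slc2a4, were dim, with 1 of 3 above the filter and 3 of 5 listed holding a probe set. Their sums were 83.0 to 345 in ILKR211A Tg, 60.0 to 152 in ILKS343D Tg and 51.5 to 128 in WT hearts. Retn, the 1 above the filter, was higher in ILKR211A Tg than in WT hearts by 0.68 on the log2 scale (adjusted p = 0.65 in limma). Below the filter, Adipoq averaged 86.2 in ILKR211A Tg and 26.3 in WT hearts, and Lep 5.50 and 5.60. The part of these cell types in the results was not tested.

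Around the members, 90 further genes of glucose use were read in 7 lists, of which 77 were tested, 6 were below the filter and 7 had no probe set of their own. For ILKR211A Tg against WT 1 of 77 rose and none fell, where 0.204% of all probe sets passed, and 8 had an unadjusted p under 0.05 (3 higher, 5 lower), against 7.51% of all. For ILKS343D Tg against WT none passed the test, against 0.00444% of all, and 5 had an unadjusted p under 0.05, against 3.98%. For ILKR211A Tg against ILKS343D Tg 1 rose and none fell, against 0.16% of all, and 8 had an unadjusted p under 0.05, against 8.45%, all in limma. The median log2 difference over the 77 genes was -0.01 for ILKR211A Tg against WT, -0.05 for ILKS343D Tg against WT and 0.01 between the lines.

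The gene that rose was Uap1, the pyrophosphorylase that completes UDP-N-acetylglucosamine in the hexosamine branch, which leaves glycolysis at fructose 6-phosphate, the substrate of phosphofructokinase. It read 612, 570 and 432 in ILKR211A Tg hearts, 294, 297 and 242 in ILKS343D Tg hearts, and 241, 295 and 327 as the lowest, median and highest WT value, so that no ILKR211A Tg heart overlapped another group. The log2 difference was 0.91 (SE 0.123, adjusted p = 0.00316 in limma) from WT and 0.95 (SE 0.142, adjusted p = 0.015 in limma) from ILKS343D Tg. With any 1 mouse left out it still passed against WT, whereas against ILKS343D Tg 0 of 77 genes passed without ILKR211A Tg replicate 1, without ILKR211A Tg replicate 2 or without ILKS343D Tg replicate 3. With the range of heart numbers as a block it still passed against WT (0.94, SE 0.145, adjusted p = 0.0233 in limma) but not between the lines (1.01, SE 0.205, adjusted p = 0.239 in limma). Uap1 is in the study's list of risen genes, which was drawn from these samples, and is not independent evidence. The other 10 tested genes of the side branches did not pass the test. Among them Pgm3, the mutase 1 step before Uap1, read lower, at 49.3 ± 8.93 in ILKR211A Tg, 78.5 ± 6.31 in ILKS343D Tg and 75.8 ± 7.81 in WT hearts (log2 difference from WT -0.63, SE 0.145, adjusted p = 0.144 in limma). Its ILKR211A Tg signal lay near the filter limit of 43.5, with 42.2 in the lowest heart. Pgm3 was singled out after its values were seen.

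Steps below phosphofructokinase were nearly flat in ILKR211A Tg hearts. None of 9 tested genes from aldolase to lactate dehydrogenase passed the test in any comparison, and their log2 differences from WT were -0.07 to 0.06 in ILKR211A Tg hearts, against -0.26 to 0.01 in ILKS343D Tg hearts, where 8 of 9 lay below 0 and 2 had an unadjusted p under 0.05. Of all probe sets tested in ILKS343D Tg against WT, 50.8% lay above 0 and 3.98% had an unadjusted p under 0.05. In the same comparison the heart markers named above differed by -0.16 (Myl2) to 0.00 (Ryr2). A like shift was thus not confined to the genes below phosphofructokinase. The 2 genes of this list with an unadjusted p under 0.05 were Pgam1, a phosphoglycerate mutase, and Eno3. Pgam1 averaged 449 ± 22.6 in ILKS343D Tg and 538 ± 39.9 in WT hearts (log2 difference -0.26, SE 0.0811, adjusted p = 0.995 in limma). The log2 difference of Eno3 was -0.13 (SE 0.0559), and Pgk1 was the 1 gene above 0. Eno3, the muscle enolase, averaged 6078 ± 304 in ILKR211A Tg, 5822 ± 146 in ILKS343D Tg and 6363 ± 348 in WT hearts. It read 5940, 6144 and 6378 in the first WT set and 6739, 6808 and 6169 in the second. Pgk1, phosphoglycerate kinase, averaged 5579 ± 269 in ILKR211A Tg, 5802 ± 238 in ILKS343D Tg and 5781 ± 302 in WT hearts.

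Of 10 other hexokinases, transporters and fructose bisphosphate enzymes, none passed the test. Tigar, a phosphatase that lowers fructose 2,6-bisphosphate, read 534, 539 and 480 in ILKR211A Tg hearts, 417, 393 and 371 in ILKS343D Tg hearts, and 410, 437 and 461 as the lowest, median and highest WT value. Its ILKR211A Tg hearts were above all others, with a log2 difference from WT of 0.25 (SE 0.0699, adjusted p = 0.278 in limma). Fbp2, the muscle fructose 1,6-bisphosphatase that opposes phosphofructokinase, read 324, 307 and 285 in ILKR211A Tg hearts, 402, 463 and 309 in ILKS343D Tg hearts, and 325, 369 and 528 as the lowest, median and highest WT value. All ILKR211A Tg values were below the WT range, the highest by less than 1 signal unit, with a log2 difference from WT of -0.37 (SE 0.149, adjusted p = 0.598 in limma). The WT values were 528, 457 and 361 in the first set and 325, 377 and 346 in the second. The ILKR211A Tg hearts thus lay nearer to the second set, that of their own range of heart numbers.

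Of 11 genes of pyruvate and lactate handling, none passed the test. Pdk4, the kinase that shuts off pyruvate dehydrogenase in fasting, averaged 2243 ± 860 in ILKR211A Tg, 3621 ± 924 in ILKS343D Tg and 3764 ± 1334 in WT hearts, and its WT values alone ran from 1557 to 5335. These were 4552, 5335 and 4220 in the first WT set and 3981, 2939 and 1557 in the second. The ILKR211A Tg hearts (3222, 1894 and 1612) overlapped only the second set. Pdk1 averaged 947 ± 81.0 in ILKR211A Tg, 834 ± 50.0 in ILKS343D Tg and 848 ± 105 in WT hearts. The 11 glycogen genes gave none past the test, with Gbe1, the branching enzyme, at 293 ± 6.19 in ILKR211A Tg, 237 ± 23.4 in ILKS343D Tg and 250 ± 52.8 in WT hearts, and Gyg, the primer glycogenin, at 1577 ± 21.3 in ILKR211A Tg, 1660 ± 6.66 in ILKS343D Tg and 1663 ± 94.9 in WT hearts. For Gbe1 the WT sets did not overlap, with 263, 338 and 276 in the first and 209, 219 and 199 in the second. The ILKR211A Tg hearts (288, 300 and 291) were above the second set and within the range of the first. The ILKS343D Tg hearts (224, 222 and 264) were above the second set and overlapped the first only at its lower end.

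None of 14 genes of insulin, Akt and AMPK input passed the test. Tbc1d1, a brake on GLUT4 traffic in muscle, averaged 58.8 ± 5.92 in ILKR211A Tg, 83.3 ± 13.9 in ILKS343D Tg and 79.8 ± 12.7 in WT hearts (log2 difference of ILKR211A Tg from WT -0.43, SE 0.164, adjusted p = 0.55 in limma). Prkaa2, a catalytic subunit of AMPK, averaged 1219 ± 37.7 in ILKR211A Tg, 1321 ± 30.3 in ILKS343D Tg and 1334 ± 100.2 in WT hearts. Of 11 transcription factors and Txnip, none passed. Ppargc1a, a coactivator of mitochondrial genes, averaged 797 ± 26.1 in ILKR211A Tg, 906 ± 44.1 in ILKS343D Tg and 922 ± 81.7 in WT hearts, and all 3 ILKR211A Tg hearts (768 to 819) were below the lowest WT heart (834). Hif1a, the hypoxia-inducible factor subunit, averaged 690 ± 47.8 in ILKR211A Tg, 737 ± 10.9 in ILKS343D Tg and 769.7 ± 98.3 in WT hearts.

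**Figure D5:**
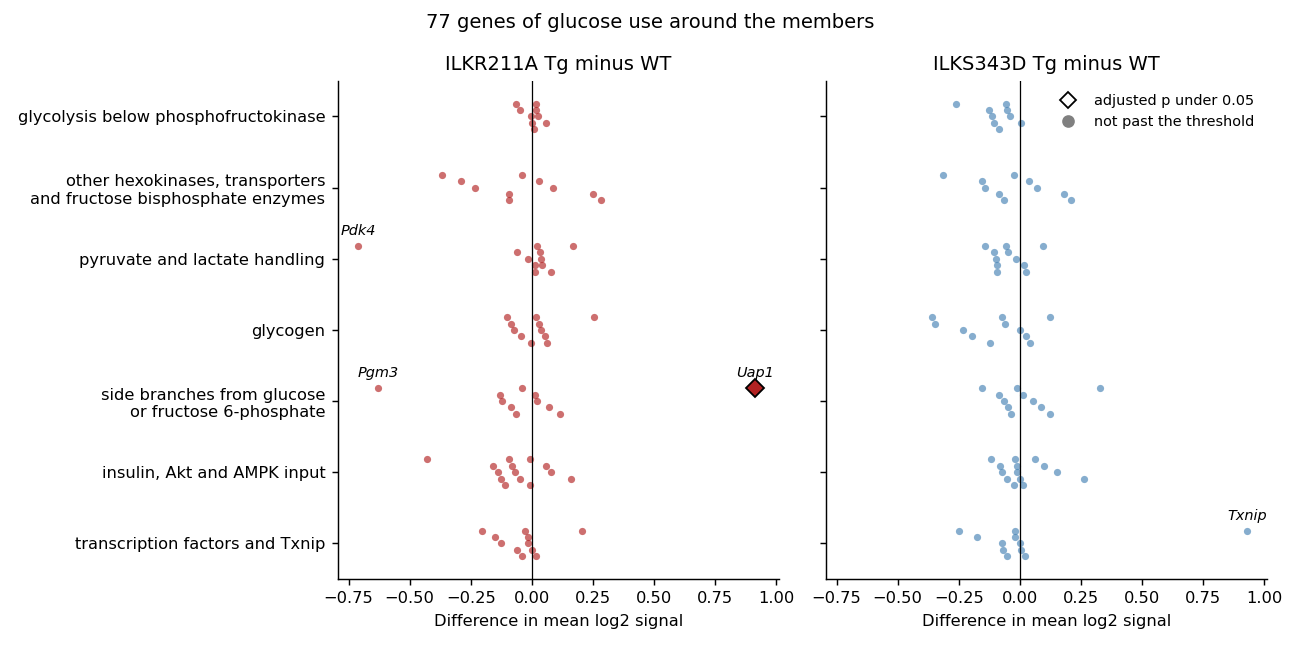
Difference in mean log2 signal from WT for 77 tested genes in 7 lists, ILKR211A Tg left and ILKS343D Tg right, 1 point a gene; diamonds passed an adjusted p of 0.05, and genes over 0.6 from 0 are named. Uap1 in ILKR211A Tg (0.91) is the one diamond, and Txnip in ILKS343D Tg (0.93, adjusted p = 0.995), Pdk4 and Pgm3 did not pass.

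Pfkl was the member with the largest ratio of difference to error in ILKR211A Tg hearts among the main probe sets, and the genes whose log2 signal ran most like its own over the 12 hearts were Hsph1 (r = 0.928), Nacc2 (0.921), Hspa4l (0.904), P4ha1 (0.900) and Trappc4 (0.900), of 11188 genes compared. Hsph1 and Hspa4l encode chaperones of the Hsp110 family, and P4ha1 a subunit of collagen prolyl hydroxylase. These correlations share the 12 arrays and their scaling, contain the difference between genotypes, and are a description only. Hsph1 rose in ILKR211A Tg hearts against WT by 1.28 on the log2 scale (adjusted p = 0.00329 in limma), and Nacc2 (0.22), Hspa4l (0.48), P4ha1 (0.63) and Trappc4 (0.16) did not pass the test.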

How the data were processed

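RNA of 12 mouse hearts was measured on Affymetrix mouse expression arrays. The authors deposited 1 table of MAS5 signal, an intensity on a linear scale, and the values show that each array was scaled to the same mean after trimming 2% at each end. For MAS5 the version and the detection calls, and for the annotation a genome build, were not given in the sources used here. Array controls (64) were left out, and signals of 45037 probe sets were taken to log2 with nothing added. Tests were run on 22519 of them, those whose mean over the arrays reached the median of all means (log2 5.44, signal 43.5). The platform annotation gives 1 gene for 34945 probe sets. Where several probe sets name a gene alone, the one of highest mean stands for it as the main probe set.

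Comparisons used limma 3.58.1 in R 4.3.3 with a trend in the prior variance, 3 genotype groups over 12 arrays (4 groups for the WT sets), two-sided, with Benjamini-Hochberg adjustment over all tested probe sets and a threshold of 0.05. Alternatives changed the scaling, offset, filters, prior variance, array weights, arrays in the fit, WT set, replicate block, choice of probe set and test, or left out each mouse. The range of heart numbers (1 to 6 or 7 to 12) as a block, without and with the replicate number within it, was added after the data were seen. The scripts were checked on simulated data. Named are all members, Ilk, the genes of each list that passed the test in any comparison or otherwise the 2 with the smallest p in ILKR211A Tg against WT, and the 5 genes most like the leading member. Pgm3, Pgam1, Txnip and the cell type markers are named beside these. The members and lists were chosen with earlier results of these data known. The labels give replicates as separate, numbered hearts, and the number of arrays limits the precision. Deviations from the group means were correlated between hearts with the same replicate number. The correlations were 0.119 to 0.179 between ILKR211A Tg and the second WT set, above 0.1 in 3 of 3 pairs. They were 0.0709 to 0.209 between ILKS343D Tg and the first WT set (2 of 3) and -0.205 to -0.00813 between the lines. The reported fit did not use this pairing, and its standard errors and p-values treat the hearts as unpaired. Pairs within a range entered only the added fit with the replicate number within the range as a block. There the log2 difference of ILKR211A Tg from WT was 0.26 (SE 0.0535) for Pfkl 1439148_a_at and 0.39 (SE 0.102) for Slc2a1 1434773_a_at. For ILKS343D Tg it was 0.21 (SE 0.0518) for Hk1 1437974_a_at. Plots were made in Python 3.11.15 with matplotlib 3.10.9.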

Additional observations from a re-analysis of the deposited data

Results flagged for a closer look

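Pfkl 1453541_at stood out in WT hearts because 1 heart was far from the others: WT first set replicate 1 read 25.6, and the next lowest WT heart read 44.7. This probe set is near the limit of the filter on dim signals, and the gap test marks about 1 group in 20 by chance. Uap1 stood out because the transgenic lines differed, with a log2 difference of 0.95 between ILKR211A Tg and ILKS343D Tg hearts (0.947, adjusted p = 0.015 in limma, higher in 3 of 3 ILKR211A Tg hearts than in any ILKS343D Tg heart). The lines lie in different ranges of heart numbers, and with the range of heart numbers as a block the difference was 1.01 (adjusted p = 0.239 in limma).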

How the results depend on the processing

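The number of member probe sets that passed the test in ILKR211A Tg against WT, 1 in the reported fit, was 0 with only the arrays of the 2 groups, with each array centred on its median, with quantile normalization, with no filter, with no trend, with only the first or only the second WT set, with a replicate block, with the range of heart numbers as a block without or with a replicate block, and with the methods' t-test after Benjamini-Hochberg, and 4 with the methods' t-test unadjusted. It was 0 to 0 with each mouse left out. For ILKR211A Tg against ILKS343D Tg the count of 0 became 1 with array weights and with a filter at the upper quartile (Pfkl 1450269_a_at in both) and 6 with the methods' unadjusted test. That test gave 1 for ILKS343D Tg against WT (Hk2) and 1 between the WT sets (Slc2a1). For the pathway lists, the count in ILKR211A Tg against WT was 0 with the methods' test after Benjamini-Hochberg and 5 unadjusted, that in ILKS343D Tg against WT was 5 unadjusted, and that in ILKR211A Tg against ILKS343D Tg was 0 with the 2 groups only, with no trend, with the range of heart numbers as a block without or with a replicate block and with the methods' test after Benjamini-Hochberg, 14 unadjusted, and 0 to 1 with a mouse left out (0 without ILKR211A Tg replicate 1, ILKR211A Tg replicate 2 or ILKS343D Tg replicate 3). The median over members in ILKR211A Tg against WT was 0.152 with only the first WT set, against 0.0535. The cause of these shifts was not tested. The ILKR211A Tg difference from WT stayed above 0 in all 27 alternatives for Pfkl (0.21 to 0.303), Slc2a1 (0.384 to 0.533), Slc2a4 (0.0524 to 0.227) and Hk1 (0.00456 to 0.213). It stayed below 0 for Hk2 (-0.0944 to -0.0363) and Pfkp (-0.278 to -0.0914). For Pfkm and Pfkfb2 it kept the sign of the reported fit in 24 and 19 of 27 (-0.0489 to 0.0228 and -0.135 to 0.105). The lowest Hk1 value, 0.00456, had an SE of 0.0862. All alternatives reuse the hearts on which the genes were selected, so a kept sign is no support for any member. On the main Pfkl and Slc2a1 probe sets each ILKR211A Tg heart was above each WT heart. Leaving out a mouse or a WT set could therefore not turn their sign, and nothing is read from it. On the dim Pfkl probe set (1453541_at) the difference was -0.07 with the range of heart numbers as a block. Leaving out the mouse labelled male is the same as leaving out WT first set replicate 1. The pairing within ranges of heart numbers changed no other count of calls: with the range of heart numbers and a replicate block Uap1 passed in ILKR211A Tg against WT (adjusted p = 0.0214 in limma) and not between the lines (0.153). The replicate block over all 12 hearts joins numbers that pair only within a range: of 18 same-numbered pairs the correlations of deviations ran from -0.205 to 0.209, with 5 over 0.1, all 5 within a range.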
